A study of Mus musculus with 6 samples.

Results

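The 40 genes described here encode the glucose transporters and enzymes of glycolysis, the regulators that set its flux, and genes that cells switch on when oxygen is short. They were listed by gene name, with earlier results of these data known, and all 40 were among the 16954 genes tested of 55573 in the count files. Glycolysis breaks glucose down to pyruvate, which enters the mitochondria or is turned into lactate and exported. Most of its genes are also targets of the hypoxia-inducible factors. The alpha subunit of these factors is hydroxylated by the prolyl hydroxylases EGLN1 and EGLN3 when oxygen is present and is then degraded, so that in low oxygen it builds up and binds the core sequence ACGTG or GCGTG near its targets. Osteoclasts are large, multinucleated, bone-resorbing cells rich in mitochondria, and both respiration and glycolysis have been studied in their formation and their resorption of bone.

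RNA-Seq was carried out on osteoclasts from 3 control and 3 Rosa-Hes1 cultures of bone marrow-derived macrophages (BMMs) of male mice. The cells were treated with M-CSF at 30 ng/ml, which keeps macrophages alive, and RANKL at 10 ng/ml, which turns them into osteoclasts, for 4 days. By the study's methods the Rosa-Hes1 cells came from Ctsk Cre/WT;Rosa Hes1 mice, where Cre knocked into the Ctsk locus removes a STOP cassette and HES1 is transcribed from Rosa26, and BMMs of 10-week-old mice were used. The controls, called wild type in the sample labels, are described there as littermates carrying the intact Rosa [STOP]Hes1 allele without Cre. HES1 is a transcriptional repressor and a target of Notch, and Ctsk (cathepsin K) is switched on as the osteoclast forms, so that Cre is made as the cells differentiate. The Rosa [STOP]Hes1 line was obtained in an ICR background, and HES1 is expressed together with GFP. The question here was how the genes of sugar breakdown and low oxygen differed between the groups and how far the 3 Rosa-Hes1 libraries differed from each other.

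Counts in genes were 13038362 to 15956331 per library. Hes1 was at 0.517, 0.557 and 0.296 CPM (counts relative to library size) in control replicates 1 to 3 and at 4.95, 4.83 and 6.90 CPM in Rosa-Hes1 replicates 1 to 3. It was higher in every Rosa-Hes1 library (log2 fold change 3.57 ± 0.30 (SE, n = 3 per group), adjusted p = 0.0048, edgeR), as labelled, and replicate 2 carried about as much Hes1 mRNA as replicate 1. CPM throughout use TMM normalization, fold changes are Rosa-Hes1 over control, and a gene is called where the Benjamini-Hochberg adjusted p of edgeR's quasi-likelihood test over all tested genes is under 0.05. Of 13 osteoclast markers 12 were called higher, and their summed level was 12264 to 15615 CPM in control and 19672 to 22956 CPM in Rosa-Hes1 libraries. The exception was Ctsk, the locus that carries Cre in 1 group. RNA of a whole culture was measured, so more cells of a type and more RNA per cell cannot be told apart.

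Promoter sequences are shown for the members on which the description turns. RefSeq (GRCm38.p6) windows of 250 bases before to 50 bases after a gene's start were at hand for 37 of the 40 members. Those of Slc2a3, Bnip3l and Ndrg1 were not used here. In the windows below, written 5′ to 3′ on the gene's strand, capitals mark ACGTG or GCGTG on either strand, so that CACGT and CACGC are the same letters read from the other strand. Egln3 and Ak4 are shown because, of the members with a window, their levels spread most among the Rosa-Hes1 libraries, Bnip3 as a mitophagy gene of the same kind, Ldha for the most matches, Hk1 as the member called with the smallest adjusted p, and Hif1a as the member called lower. Where a gene had several starts, the window with the most matches is given.
Egln3: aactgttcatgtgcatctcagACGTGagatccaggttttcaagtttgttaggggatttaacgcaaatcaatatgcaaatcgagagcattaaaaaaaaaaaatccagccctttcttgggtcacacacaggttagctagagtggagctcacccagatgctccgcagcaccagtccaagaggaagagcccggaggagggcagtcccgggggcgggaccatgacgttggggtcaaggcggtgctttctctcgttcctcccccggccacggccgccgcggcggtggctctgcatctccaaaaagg
Ak4: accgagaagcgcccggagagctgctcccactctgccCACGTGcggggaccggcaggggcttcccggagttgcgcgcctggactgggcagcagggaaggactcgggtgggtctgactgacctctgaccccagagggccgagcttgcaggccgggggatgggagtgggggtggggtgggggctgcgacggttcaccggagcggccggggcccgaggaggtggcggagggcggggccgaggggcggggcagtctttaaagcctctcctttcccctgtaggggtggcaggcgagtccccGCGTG
Bnip3: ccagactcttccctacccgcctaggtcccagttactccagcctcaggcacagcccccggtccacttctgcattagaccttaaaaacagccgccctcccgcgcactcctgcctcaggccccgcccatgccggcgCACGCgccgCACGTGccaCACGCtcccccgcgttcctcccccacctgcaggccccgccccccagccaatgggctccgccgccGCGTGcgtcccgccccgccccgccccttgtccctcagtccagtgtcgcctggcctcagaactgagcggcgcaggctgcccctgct
Ldha: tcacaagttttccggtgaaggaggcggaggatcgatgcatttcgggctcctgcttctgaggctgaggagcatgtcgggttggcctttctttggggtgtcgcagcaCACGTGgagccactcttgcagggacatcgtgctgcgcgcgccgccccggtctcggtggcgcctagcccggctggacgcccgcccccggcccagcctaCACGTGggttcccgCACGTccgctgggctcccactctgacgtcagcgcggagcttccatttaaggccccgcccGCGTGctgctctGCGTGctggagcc
Hk1: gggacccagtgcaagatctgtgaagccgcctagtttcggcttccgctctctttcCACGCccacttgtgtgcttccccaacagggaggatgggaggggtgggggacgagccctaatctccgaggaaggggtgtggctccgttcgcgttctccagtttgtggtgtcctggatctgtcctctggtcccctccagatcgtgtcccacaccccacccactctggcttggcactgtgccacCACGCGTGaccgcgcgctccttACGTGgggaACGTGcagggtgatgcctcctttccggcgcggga
Hif1a: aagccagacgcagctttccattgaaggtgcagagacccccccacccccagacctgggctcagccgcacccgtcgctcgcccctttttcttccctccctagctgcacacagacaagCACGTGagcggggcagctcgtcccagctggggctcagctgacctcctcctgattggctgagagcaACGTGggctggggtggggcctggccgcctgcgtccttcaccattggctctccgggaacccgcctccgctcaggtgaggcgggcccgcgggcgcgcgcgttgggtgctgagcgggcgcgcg
The Egln3 window (chr12:54203825-54204124, minus strand) holds a single match, far from the start. The Ak4 window (chr4:101419453-101419752, plus strand) and the Bnip3 window (chr7:138909457-138909756, minus strand) hold 3 and 5. Ldha (chr7:46845554-46845853, plus strand) has 7 and Hk1 (chr10:62340372-62340671, minus strand) has 5. Hif1a (chr12:73907617-73907916, plus strand) has 3. The number of matches was not compared with the fold changes. A palindromic CACGTG counts as 2 matches, 1 on each strand.

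ACGTG or GCGTG on either strand was found for 34 of the 37 members (91.9%), against 46.7% of all 27025 genes in the table, and the exceptions were Gpi1, Tpi1 and Eno2. ACGTG alone was found for 27 of 37 (73.0%), against 21.8% of all genes. The letters each contain CG, and member windows were richer in CG, with a median of 21.5 CG per window against 7 over all windows. Among windows with at least the members' median number of CG, ACGTG or GCGTG was found in 96.4% of 28 member windows and in 74.3% of all 7588, and ACGTG in 71.4% and 28.9%. HES proteins are known to bind the N box (CACNAG) and the class C site (CACGCG). The N box on either strand was found for 54.1% of the members and 46.1% of all genes, and the class C site for 40.5% and 10.5%. The class C site holds CG too. Among windows with at least the members' median number of CG it was found in 39.3% of member windows and 27.9% of all, a much smaller difference. Every class C site also holds GCGTG on its other strand, so these counts overlap. Such matches are letters in a window, and binding was not measured.

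Of the 40 members, 3 were called higher (Hk1, Ldhb and Vegfa), 1 was called lower (Hif1a) and 36 were not called. Over all tested genes 5.84% were called higher and 2.41% lower. The 3 calls, 7.50% of the members, are therefore near the background. The direction was more uniform than the calls. A log2 fold change above 0 was found for 37 of 40 members, against 48.6% of all tested genes. An unadjusted edgeR p under 0.05 was found for 26, against 25.7% of all tested genes. Among genes of at least 1 CPM these shares were 47.7% and 32.3%. The median log2 fold change was 0.56 over the members and -0.01 over all tested genes. All 3 Rosa-Hes1 libraries lay above all 3 controls for 11 members, or 27.5%, where 16.6% of all tested genes did so. They lay below for Hif1a only, where 14.5% of all tested genes did so. The members below 0 were Hif1a, Slc2a3 and Slc16a1.

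**Figure D1:**
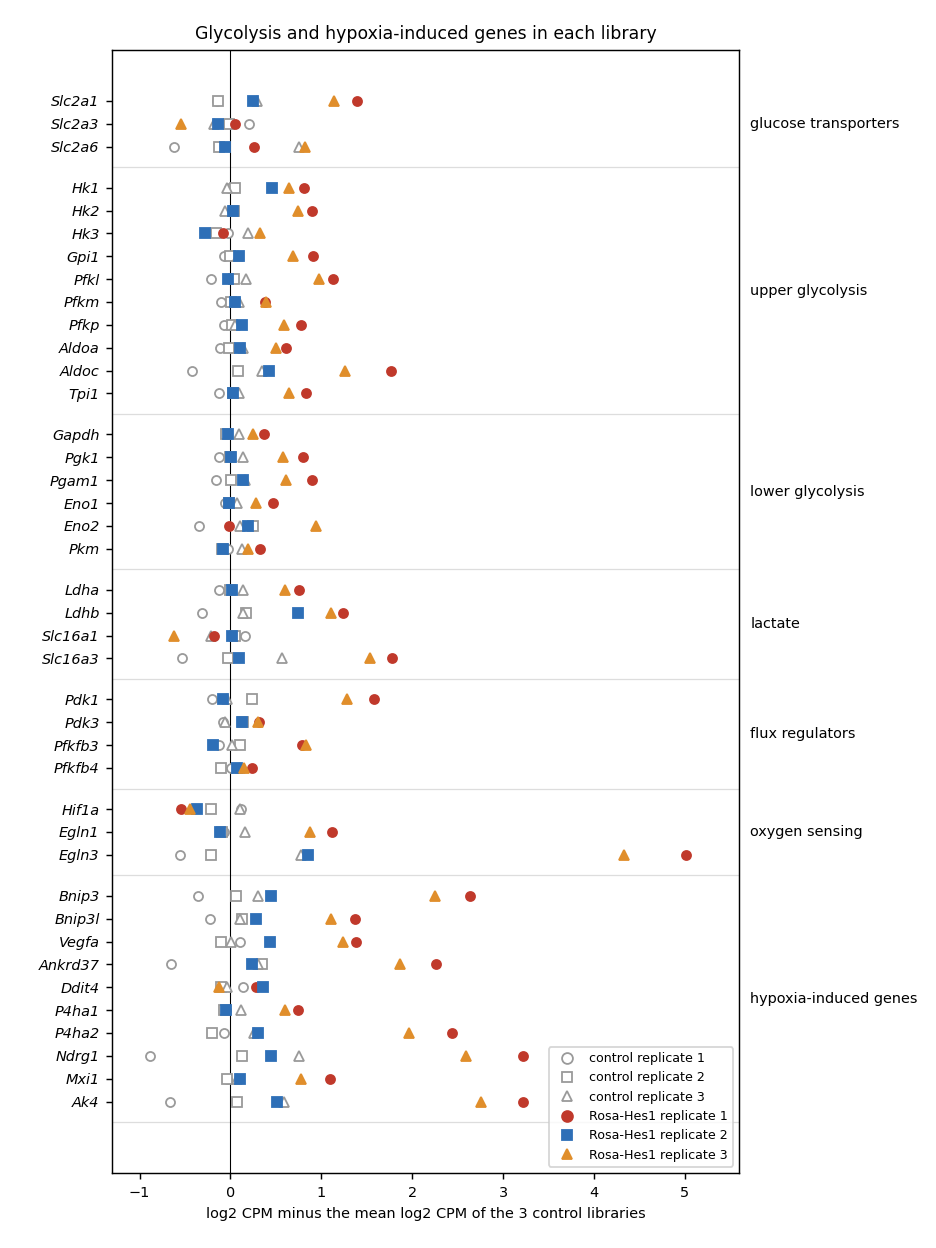
Level of each of the 40 members in each library, as log2 CPM minus the mean of the 3 controls (x axis), by gene and role (y axis). Open grey symbols are controls and filled symbols Rosa-Hes1 libraries. Replicate 2 (blue squares) is the lowest Rosa-Hes1 library for 35 of 40 genes and lies near 0 for most of them.

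The Rosa-Hes1 libraries differed among themselves. Replicate 2 was the lowest of its group for 35 of 40 members, and over all 12493 genes of at least 1 CPM it was the lowest for 38.8%. Replicate 1 was the highest for 32 members (33.6% over all genes). The median member stood 0.82 above the control mean on the log2 scale in replicate 1, 0.72 in replicate 3 and 0.10 in replicate 2. Replicate 2 lay inside the range of the 3 controls for 24 members, above it for 12 and below it for 4. Those 12 are 30.0%, close to the 29.9% of all genes of at least 1 CPM. Replicate 1 lay above all controls for 34 members (35.4% of all genes) and replicate 3 for 36 (35.6%).

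The range of log2 CPM over the 3 Rosa-Hes1 libraries had a median of 0.81 over the members and 0.24 over all genes of at least 1 CPM. Over the 3 controls the medians were 0.29 and 0.22. The range was wider among Rosa-Hes1 libraries than among controls for 36 of 40 members, against 54.2% of all genes. It was above 1, a 2-fold spread, for 14 members in Rosa-Hes1 and 5 in control libraries. The controls also kept an order, to a smaller extent, since replicate 1 was the lowest control for 26 members (41.7% of all genes) and replicate 3 the highest for 26 (36.1%).

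**Figure D2:**
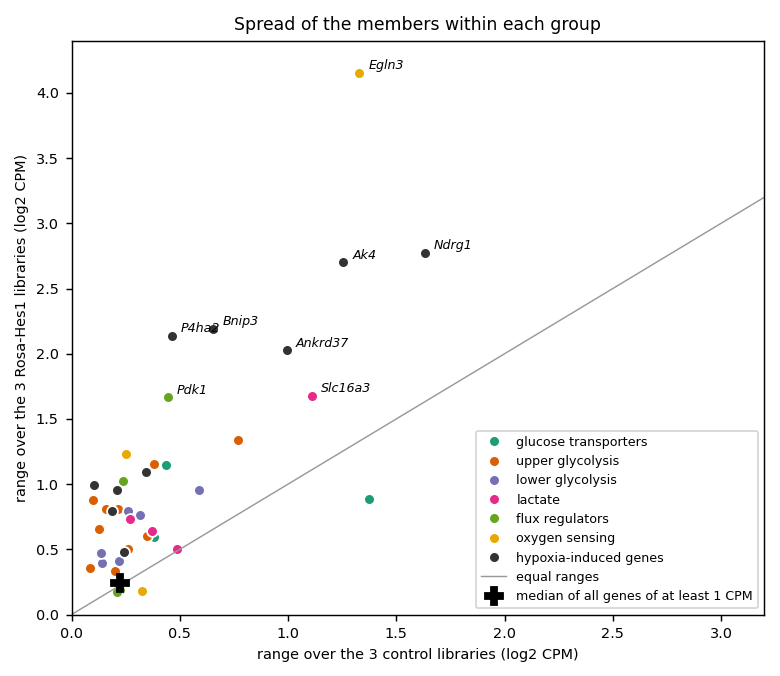
Range of log2 CPM over the 3 control libraries (x axis) and over the 3 Rosa-Hes1 libraries (y axis), with 1 point per member, coloured by role. The line marks equal ranges and the cross the medians of all genes of at least 1 CPM, 0.22 and 0.24. Points above the line, 36 of 40, spread more among Rosa-Hes1 libraries, with Egln3 at 4.16.

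Each of the 6 libraries was left out in turn. Without Rosa-Hes1 replicate 2, 30 members were called higher and 1 lower, where 9.44% and 6.63% of the 16464 genes then tested were called. The members then not called were Slc2a3, Slc2a6, Hk3, Eno2, Pkm, Slc16a1, Pdk3, Pfkfb4 and Ddit4. The other leave-outs gave 1 or 2 members higher, with Hk1 alone left without Rosa-Hes1 replicate 1. In these fits 1.48% to 3.90% of all tested genes were called higher and 0.13% to 1.04% lower. With all libraries the shares were 5.84% and 2.41%, so calls were lost among all genes as well. The median log2 fold change of the members was 0.75 without Rosa-Hes1 replicate 2. That library was the lowest of its group for 35 of the 40 members. Larger fold changes and smaller adjusted p without it were set by those values and are no separate evidence of a difference. Tests that treat the spread differently gave intermediate counts with all 6 libraries. DESeq2 called 21 members higher and 1 lower (7.68% and 5.17% of all tested genes), and limma-voom, with weights that let a deviating library count less, called 18 and 1 (8.12% and 5.41%). The 4 members called by edgeR were called by both.

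**Figure D3:**
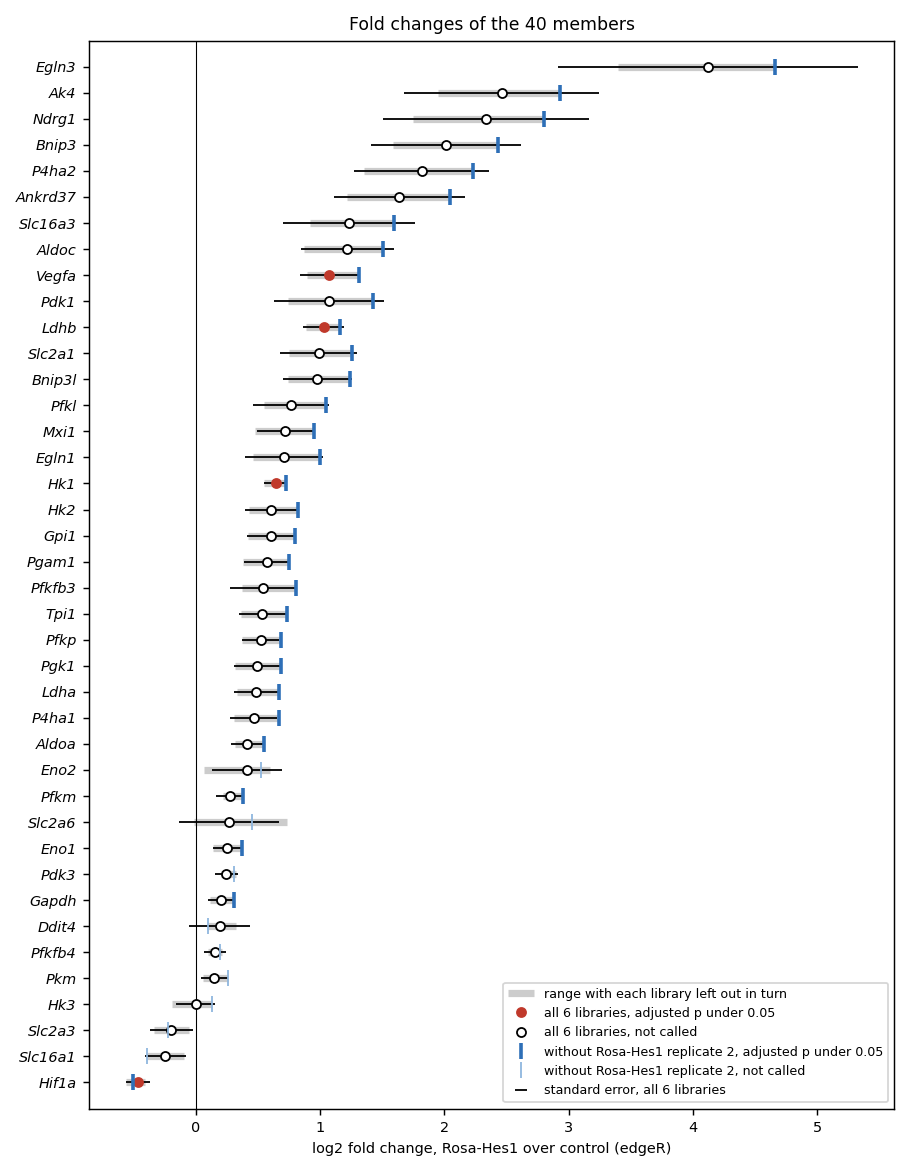
Log2 fold change (Rosa-Hes1 over control, edgeR) of the 40 members with its standard error (black). Grey bars give the range when each library is left out in turn, and blue marks the value without Rosa-Hes1 replicate 2. With all libraries 4 members are called (red), from -0.46 for Hif1a to 1.08 for Vegfa, and without Rosa-Hes1 replicate 2 there are 31.

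Glucose enters through facilitative transporters. Slc2a1, which encodes GLUT1, the most abundant of the 3 per length, was at 87.4, 87.8 and 118 CPM in control and at 255, 115 and 214 CPM in Rosa-Hes1 replicates 1 to 3. Replicates 1 and 3 each exceeded every control and replicate 2 fell between control replicates 2 and 3, so the groups overlapped (log2 fold change 0.99 ± 0.31 (SE), adjusted p = 0.113). Slc2a3, the high-affinity transporter GLUT3, differed by -0.20 and Slc2a6, a transporter expressed in macrophages, by 0.27 on the log2 scale. Neither was called when any library was left out. No transporter of the 3 was called with edgeR, and 1 had an unadjusted p under 0.05 (25.7% of all tested genes). DESeq2 and limma-voom each called 1 higher, Slc2a1 (7.68% and 8.12% of all tested genes).

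The upper part of glycolysis spends ATP to split glucose into triose phosphates. All 10 of its members had a log2 fold change above 0, against 48.6% of all tested genes, and the median was 0.57. An unadjusted p under 0.05 was found for 9, against 25.7% of all tested genes and 32.3% of those of at least 1 CPM. Hk1, the hexokinase that starts glycolysis in most tissues (chr10:62268855-62379908), was at 236, 246 and 233 CPM in control and 418, 327 and 372 CPM in Rosa-Hes1 replicates 1 to 3. The groups did not overlap, replicate 2 included, and Hk1 rose by 0.64 ± 0.09 on the log2 scale (1.56-fold, adjusted p = 0.0076). It was the only member called in all 6 leave-outs (log2 fold change 0.55 to 0.73).

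Hk2, the hexokinase usually linked to hypoxia, stood at 102, 104 and 96.7 CPM in control and 188, 102 and 169 CPM in Rosa-Hes1 libraries, with replicate 2 at the control level (log2 fold change 0.60, adjusted p = 0.123). Hk3, the hexokinase of myeloid cells, had nearly equal means of 162 and 163 CPM (log2 fold change 0.00 ± 0.16), with a sign that changed with the scaling. Per kilobase of exon, Hk1 made up 31.6%, 33.8% and 29.2% of the 3 hexokinases in control and 40.2%, 41.8% and 34.4% in Rosa-Hes1 libraries, and Hk3 49.0%, 45.9% and 53.5% and 34.0%, 39.5% and 43.3%. Lengths throughout join all annotated exons of a gene, 8532 bases for Hk1 and 3682 for Hk3. Their longest transcripts have 4278 and 3219 bases, so which of the 2 leads depends on the length used. The Hk1 share was higher, and the Hk3 share lower, in every Rosa-Hes1 library than in every control.

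Aldoa, the aldolase of muscle and most cells, was the most abundant member of this part at 1184, 1270 and 1417 CPM in control and 1958, 1379 and 1827 CPM in Rosa-Hes1 libraries. Replicate 2 lay within the control range (log2 fold change 0.42 ± 0.13, adjusted p = 0.0898). Another Ensembl gene named Aldoa lies upstream and is not part of these values. Aldoc, the aldolase of brain, was far lower but differed more, from 14.2, 20.1 and 24.2 CPM to 65.0, 25.6 and 45.7 CPM, with no overlap between groups (log2 fold change 1.22 ± 0.37, adjusted p = 0.107). Phosphofructokinase, the committed step, has a liver, a muscle and a platelet form, and their log2 fold changes were 0.77 for Pfkl, 0.28 for Pfkm and 0.52 for Pfkp. Gpi1, which isomerizes glucose 6-phosphate, stood at 0.60 and Tpi1, which interconverts the triose phosphates, at 0.54.

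The lower part regains the ATP and ends in pyruvate. None of its 6 members was called with edgeR. An unadjusted p under 0.05 was found for 2, near the share of 32.3% among all genes of at least 1 CPM. DESeq2 and limma-voom each called 2 higher (7.68% and 8.12% of all tested genes). The log2 fold changes of the 6 were smaller, with a median of 0.33. Pkm, pyruvate kinase, the most abundant of all members by CPM, was at 2243, 2151 and 2501 CPM in control and 2877, 2165 and 2616 CPM in Rosa-Hes1 libraries. That is a log2 fold change of 0.15 ± 0.11 (adjusted p = 0.446) with overlapping groups. Gapdh, the dehydrogenase often used as a reference gene, was at 136, 136 and 150 CPM in control and 182, 139 and 167 CPM in Rosa-Hes1 libraries. Pgk1 (log2 fold change 0.49), Pgam1 (0.57) and Eno1 (0.26), which follow it in the pathway, showed the same order of Rosa-Hes1 libraries, replicate 1 above 3 above 2, while Eno2, the neuronal enolase, was at under 8 CPM with replicate 3 the highest.

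Several of these genes share sequence with copies. Of the 75-base stretches in the longest transcript of Gapdh, 80.3% also occurred in another annotated transcript, spread over 121 other genes, and reads from such stretches have no single source. The shares were 67.5% for Pgk1, 65.4% for Eno1, 40.6% for Pgam1 and 19.6% for Pkm. Reads without a unique alignment were not counted, so the levels of such genes may be too low. The ranking of members by CPM is limited by this. They were 0% for Egln3 and Vegfa, 1.97% for Hk1, 5.68% for Hif1a and 16.7% for Ldhb.

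Lactate dehydrogenase turns pyruvate into lactate and back. Ldhb, the form of heart muscle (chr6:142490249-142507957), was at 42.6, 59.7 and 58.5 CPM in control and 125, 88.5 and 114 CPM in Rosa-Hes1 replicates 1 to 3. Every Rosa-Hes1 library exceeded every control and Ldhb rose by 1.03 ± 0.16 on the log2 scale (2.04-fold, adjusted p = 0.0130). Ldha, the form usually named as the hypoxia target, was at 966, 1049 and 1165 CPM in control and 1782, 1073 and 1599 CPM in Rosa-Hes1 libraries, so that replicate 2 sat inside the control range (log2 fold change 0.49 ± 0.18, adjusted p = 0.140). Per kilobase of exon Ldhb was 8.50%, 10.7% and 9.57% of the pair in control and 12.9%, 14.8% and 13.1% in Rosa-Hes1 libraries, without overlap and with replicate 2 the highest. The Ldhb call was lost without Rosa-Hes1 replicate 1 (adjusted p = 0.0557).

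Lactate leaves the cell through MCT4, encoded by Slc16a3, and moves both ways through MCT1, encoded by Slc16a1. Slc16a3 was at 77.8, 111 and 168 CPM in control and 387, 121 and 328 CPM in Rosa-Hes1 libraries. Slc16a1 stood at 78.4, 72.7 and 60.6 CPM in control and 62.0, 70.9 and 45.5 CPM. Neither was called with edgeR, limma-voom called Slc16a3 higher (adjusted p = 0.049), and the log2 fold changes had opposite signs (1.23 ± 0.53 and -0.25 ± 0.16). Per kilobase, Slc16a3 was 45.2%, 55.9% and 69.8% of the pair in control and 83.9%, 58.7% and 85.7% in Rosa-Hes1 libraries, so that replicate 2 lay inside the control range.

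**Figure D4:**
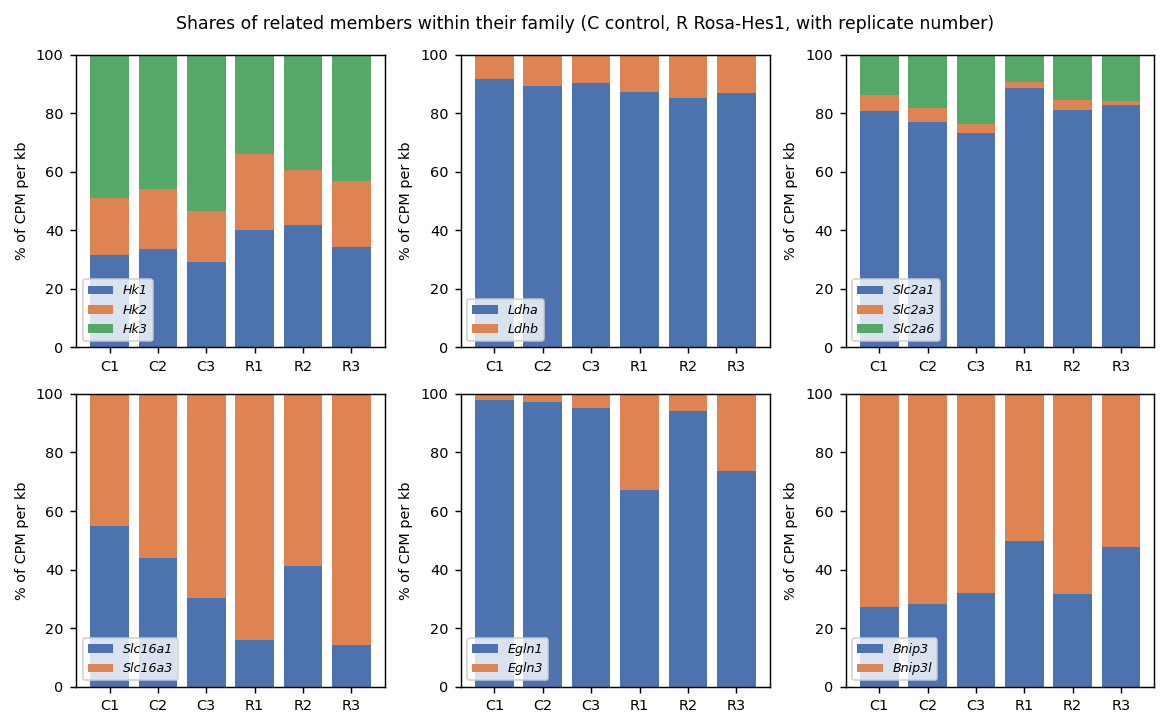
Share of each member in the summed level (CPM per kilobase of exon) of related members, in each library. C1 to C3 are control and R1 to R3 Rosa-Hes1 libraries. Hk1 takes 34.4% to 41.8% of the hexokinases in Rosa-Hes1 and 29.2% to 33.8% in control libraries, and the share of Egln3 is 32.7% in R1, 5.91% in R2 and 26.3% in R3.

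The regulators decide whether pyruvate enters the mitochondria and how fast phosphofructokinase runs. Pdk1, a kinase that shuts off pyruvate dehydrogenase, was at 86.8, 118 and 97.4 CPM in control and 299, 94.3 and 243 CPM in Rosa-Hes1 libraries. Replicate 2 lay between control replicates 1 and 3, while replicates 1 and 3 each exceeded 2 times every control (log2 fold change 1.07 ± 0.44, adjusted p = 0.213). Pdk3, a related kinase, differed less, at 31.5 to 36.8 CPM in control and 36.5 to 41.5 CPM in Rosa-Hes1 libraries (log2 fold change 0.25 ± 0.09). Pfkfb3, which makes the activator fructose 2,6-bisphosphate, reached 121 and 125 CPM in replicates 1 and 3 but 61.2 CPM in replicate 2, below its lowest control of 63.9 CPM. Pfkfb4, its hypoxia-linked relative, had a narrow range in both groups and a log2 fold change of 0.16. None of the 4 was called with edgeR, DESeq2 or limma-voom, and only Pdk3 had an unadjusted edgeR p under 0.05.

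The oxygen-sensing members differed in sign. Hif1a, the factor's alpha subunit (chr12:73901375-73947530), was at 239, 190 and 237 CPM in control and 151, 171 and 162 CPM in Rosa-Hes1 replicates 1 to 3. All Rosa-Hes1 libraries were below all controls and Hif1a fell by 0.46 ± 0.10 on the log2 scale (0.726-fold, adjusted p = 0.0270). Its range over the Rosa-Hes1 libraries was 0.18, with only Pfkfb4 narrower among the members, and replicate 2 was the highest of them. The call held in 2 of 6 leave-outs (log2 fold change -0.56 to -0.41). The HIF1A protein is controlled mainly by its stability, and the protein was not measured here.

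Egln3 (chr12:54178981-54203860) had the widest spread of all. Its counts were 15, 23 and 39 in control and 846, 47 and 479 in Rosa-Hes1 replicates 1 to 3, or 1.11, 1.42 and 2.88 CPM and 55.8, 3.07 and 34.8 CPM. Replicate 2 lay just above the highest control, so the groups did not overlap, yet the log2 fold change of 4.12 had an SE of 1.21 (adjusted p = 0.112). Without Rosa-Hes1 replicate 2, the lowest of its group, the log2 fold change was 4.66, which is no separate evidence of a difference. Egln1, the main prolyl hydroxylase, was at 68.0, 67.2 and 79.9 CPM in control and 155, 65.9 and 131 CPM in Rosa-Hes1 libraries, with replicate 2 below every control. Per kilobase, Egln3 was 2.15%, 2.78% and 4.64% of the pair in control and 32.7%, 5.91% and 26.3% in the Rosa-Hes1 libraries.

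The 10 hypoxia-induced genes outside glycolysis had the highest median log2 fold change of the roles, 1.36, with values from 0.19 for Ddit4 to 2.46 for Ak4. An unadjusted p under 0.05 was found for 9 of the 10, against 25.7% of all tested genes and 32.3% of those of at least 1 CPM. DESeq2 called 8 higher and limma-voom 4, against 7.68% and 8.12% of all tested genes. Vegfa, the angiogenic growth factor (chr17:46016993-46032369), was the only one called with edgeR. It was at 42.2, 36.5 and 39.3 CPM in control and 103, 53.0 and 93.0 CPM in Rosa-Hes1 libraries, all of them above the controls, and rose by 1.08 ± 0.24 on the log2 scale (2.11-fold, adjusted p = 0.0396). The call was kept in 1 leave-out, that of Rosa-Hes1 replicate 2, and was lost with no filter on low counts.

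Ndrg1, a stress-responsive gene induced by low oxygen, was at 5.53, 11.2 and 17.3 CPM in control and 95.9, 14.0 and 62.1 CPM in Rosa-Hes1 libraries. Ak4, a mitochondrial adenylate kinase, was at 5.90, 9.84 and 14.2 CPM and 87.8, 13.4 and 63.8 CPM. For both, replicate 2 sat inside the control range and the other Rosa-Hes1 libraries were each more than 3 times the highest control. Their log2 fold changes were 2.34 ± 0.83 (adjusted p = 0.164) and 2.46 ± 0.79 (adjusted p = 0.133), and 2.80 and 2.93 without replicate 2. Both varied among controls too, with ranges of 1.63 and 1.26 on the log2 scale.

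**Figure D5:**
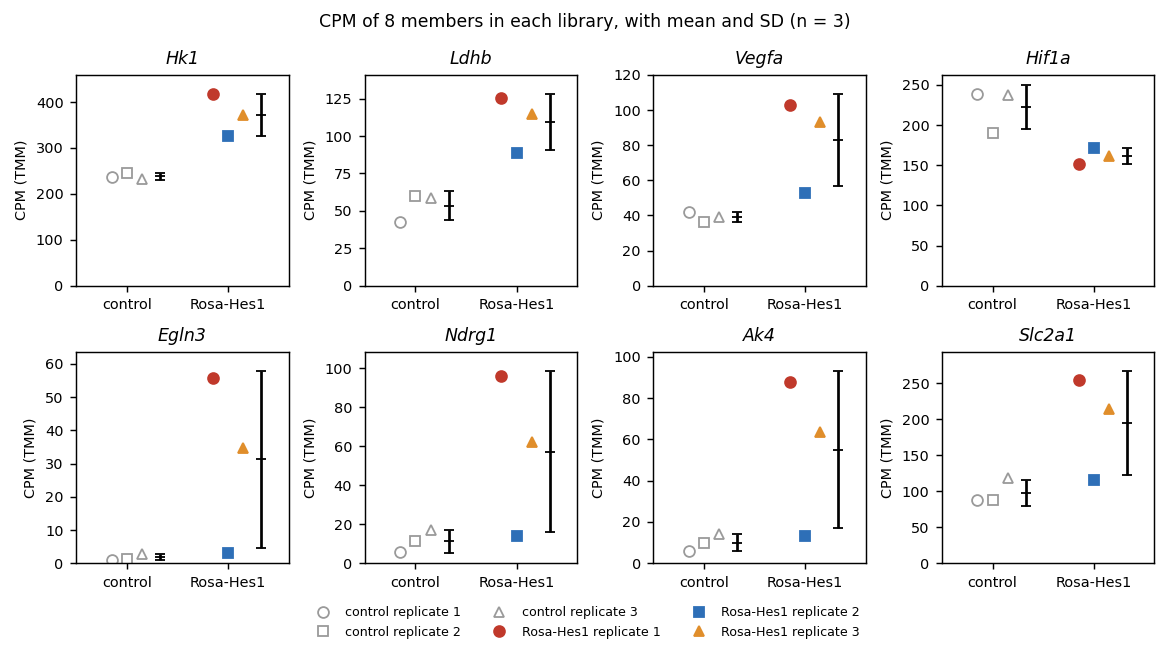
CPM of 8 members in each library, on linear axes from 0, with the mean and SD (n = 3) of each group beside the points. Hk1, Ldhb, Vegfa and Hif1a (top), the called members, do not overlap between groups, while Ndrg1, Ak4 and Slc2a1 in Rosa-Hes1 replicate 2 (blue squares) lie within the control range and Egln3 at 3.07 CPM just above it.

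Bnip3 and Bnip3l, which mark mitochondria for removal, had non-overlapping groups and were called with DESeq2 and limma-voom but not with edgeR. Bnip3 was at 12.3, 16.4 and 19.4 CPM in control and 98.1, 21.5 and 75.1 CPM in Rosa-Hes1 libraries, and Bnip3l at 55.9, 71.1 and 70.2 CPM and 169, 79.1 and 141 CPM. Replicate 2 was above all controls for both, by a small margin (adjusted p = 0.115 and 0.0889, edgeR). Other genes shared 46.3% and 18.7% of their 75-base stretches, and 22.3% of the exon bases of Bnip3 lie opposite another gene.

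P4ha1 and P4ha2 encode collagen prolyl hydroxylases. P4ha1, the most abundant gene of this group, was at 169, 167 and 190 CPM in control and 293, 169 and 265 CPM in Rosa-Hes1 libraries (log2 fold change 0.47, adjusted p = 0.177), and P4ha2 at 4.28, 3.90 and 5.40 CPM and 24.6, 5.55 and 17.7 CPM (1.82, adjusted p = 0.0983). Mxi1, an antagonist of MYC, stood at 0.72 and Ankrd37, a small ankyrin protein with at most 116 counts in a library and 26.4% of its exon bases opposite other genes, at 1.64 on the log2 scale. Ddit4, an inhibitor of mTORC1 that low oxygen usually induces, was at 1.53 to 2.15 CPM in every library (log2 fold change 0.19 ± 0.25).

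Genes of the same pathways outside the 40 were read from lists of other pathway genes, of which 99 were tested. With edgeR 18 of them were called higher and 5 lower, where 5.84% and 2.41% of all tested genes were. Of 31 other glycolysis and pyruvate genes 8 were higher and 3 lower. Pfkfb2, of the Pfkfb3 family, rose from 19.2 ± 2.32 to 35.2 ± 3.98 CPM (mean ± SD, n = 3), Slc16a7, the lactate and pyruvate transporter MCT2, from 91.5 to 137 CPM, and Pdha1, the pyruvate dehydrogenase subunit that the PDKs phosphorylate, from 189 to 276 CPM. Slc2a9, a urate and hexose transporter, fell from 25.6 to 15.9 CPM. For these 4 the adjusted p was 0.0072 to 0.015 and no Rosa-Hes1 library overlapped a control.

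Of 40 other hypoxia-induced genes 10 were called higher and 0 lower with edgeR. DESeq2 called 16 higher and 1 lower, Cdkn3 (7.68% and 5.17% of all tested genes). An unadjusted edgeR p under 0.05 was found for 20, where 25.7% of all genes and 32.3% of those of at least 1 CPM had one. Rosa-Hes1 replicate 2 was the lowest of its group for 29 (38.8% of all genes). Slc6a8, the creatine transporter, rose by 1.05, Tfrc, the transferrin receptor, by 0.56, Bhlhe40, a transcriptional repressor, by 0.60, and Insig2, which retains the sterol sensor in the ER, by 0.93 on the log2 scale (adjusted p = 0.0051 to 0.015). For Tfrc replicate 2 was the highest Rosa-Hes1 library, at 2030 CPM against 1810 and 1994. Of 17 pentose phosphate and glycogen genes edgeR called 2, both lower, while DESeq2 and limma-voom also called 2 higher, the glycogen-making Gbe1 and Gys1. The 2 lower with edgeR were G6pdx, which opens the pentose phosphate pathway (346 to 277 CPM), and Rpia, its ribose 5-phosphate isomerase (38.7 to 28.9 CPM). None of 11 other oxygen-sensing genes was called with edgeR or DESeq2, where 3 had an unadjusted p under 0.05 and limma-voom called 1, Vhl. Their median log2 fold change was 0.10.

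Marker levels of other cells also differed between libraries of a group. Of 12 dividing-cell markers 3 (Mcm2, Pcna and Tyms) were called lower, the summed level was 3048, 2836 and 2654 CPM in control and 2029, 2488 and 1623 CPM in Rosa-Hes1 replicates 1 to 3, and replicate 2 was the highest Rosa-Hes1 library for 11 of 12. DESeq2 called 10 of the 12 lower, against 5.17% of all tested genes. Neutrophil markers summed to 546, 372 and 274 CPM in control and 260, 371 and 300 CPM in Rosa-Hes1 libraries, and replicate 2 was the highest of its group for 10 of 10. Stroma and osteoblast markers were at 476, 174 and 175 CPM and 261, 370 and 108 CPM. Control replicate 1, lowest for 26 members, and Rosa-Hes1 replicate 2, lowest for 35, thus had the highest sums of their groups for these 3 lists. The sum of osteoclast markers was also the lowest of its group in both. Macrophage and precursor markers overlapped between groups, with 1 of 10, Cx3cr1, called lower. The order of the 3 lists did not hold for every other cell type. Rosa-Hes1 replicate 2 had the lowest sum of its group for macrophage and precursor, dendritic cell and B cell markers. For endothelial and for T and NK cell markers neither of the named libraries had the highest sum of its group. Mast and basophil markers, at low levels, kept the order. The part of cell makeup in the spread of the members was not tested.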

How the data were processed

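Osteoclast mRNA of 3 control and 3 Rosa-Hes1 cultures was sequenced as paired-end reads in a single pool (TruSeq Stranded mRNA). The authors trimmed reads with Sickle, aligned them with HISAT2 2.1.0, used SAMtools 1.9, removed duplicates with Picard and counted with HTSeq. The submitters' processing notes give GRCm38, and the strand setting is not given in the sources used here, so antisense overlaps cannot be told apart. Counts, deposited by the authors for each Ensembl gene, are raw and not normalized. Reads not assigned to a single gene, 17.4% to 18.1% of each total, were left out. They included ambiguous reads (5.51% to 6.07%) and reads without a unique alignment (7.37% to 7.49%).

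From these counts, edgeR 4.0.16 (R 4.3.3) with TMM normalization and robust quasi-likelihood tests compared Rosa-Hes1 with control over genes of at least 10 counts in all, with Benjamini-Hochberg adjustment and a threshold of 0.05. SE is the log2 fold change over the square root of F, and log2 CPM used a prior count of 1. Names, positions and exon lengths came from GENCODE M21 and promoters from RefSeq. The exon length of a gene joins all its annotated exons and can exceed the length of any 1 transcript. DESeq2 1.42.0 and limma 3.58.1 served as alternatives. The 40 members and the other lists were chosen with earlier results of these data known, as were the promoter and shared-sequence checks. All members are named, and values per library are given for called members, for the most abundant of each role, for Hif1a, Egln3, Vegfa and Slc2a1, and for the 3 with the widest Rosa-Hes1 range. Other members with values per library were added after their values were seen. From each other list up to 4 called genes are named. Replicates are labelled as biological. An exact permutation test of 3 against 3 cannot go below 0.10 and was not used. Same-numbered libraries did not consistently deviate together, so the numbers were not used as pairs.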

Additional observations from a re-analysis of the deposited data

How the results depend on the processing

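DESeq2 size factors, upper-quartile scaling and filterByExpr left the same 4 members called. Without a filter on low counts Vegfa was lost, leaving 2 higher and 1 lower, and 697 genes in all were called lower in place of 408. DESeq2's test called 21 members, 29 other pathway genes and 1302 of all genes higher, with 876 of all genes lower. Limma-voom with quality weights called 18 members higher and 917 genes lower. The replicate numbers gave correlations of 0.01, -0.17 and 0.38 between same-numbered libraries, and no consistent pairing. With the replicate block 3 members were higher and 0 lower (Hif1a, adjusted p = 0.053, edgeR), as were 11 and 3 other pathway genes.

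Leaving out each library in turn gave 1 to 30 members called higher and 0 to 1 lower, 244 to 1555 genes higher and 21 to 1091 lower, and 4 to 36 other pathway genes higher and 0 to 5 lower. The highest counts of members, 30, and of genes came without Rosa-Hes1 replicate 2, and the lowest without Rosa-Hes1 replicate 1. A fit with 5 libraries has fewer residual degrees of freedom. Of the members only Hk3 and Slc2a6 changed sign. Slc2a6 was 0.27 ± 0.40 as reported. Hk3, 0.00 as reported, was at -0.0034 with DESeq2 size factors, -0.0033 in DESeq2's test and -0.012 with the replicate block, and without 1 library it ranged from -0.19 to 0.13. Slc2a6 ranged from -0.011 to 0.73. Members under 10 CPM, such as Ankrd37, Ddit4 and Eno2, are limited by depth.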

Other observations

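Annotated copies of several members were counted as genes of their own. Ak3l2-ps, a copy of Ak4, was at 0.0738, 0.248 and 0.444 CPM in control and 3.56, 0.718 and 1.96 CPM in Rosa-Hes1 replicates 1 to 3 and was called higher (log2 fold change 2.99 ± 0.71, adjusted p = 0.0419, edgeR), as was Bnip3l-ps (1.09 ± 0.28, adjusted p = 0.0483). Both have the order of Rosa-Hes1 libraries seen in their parents, replicate 1 above 3 above 2. Reads of a parent and its copy could not be separated from these counts. Eno1b, which shares most of its sequence with Eno1, was at 78.0, 86.4 and 93.5 CPM in control and 123, 80.2 and 104 CPM in Rosa-Hes1 libraries and was not called.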
